A study of Mus musculus with 6 samples.

Results

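The muscle ubiquitin ligase and FoxO genes, 9 in all, were followed in ischemic muscle of mice lacking GPR174, a lysophosphatidylserine receptor of lymphocytes. They were taken by name, with earlier results of these data known, and all 9 were among the 18089 genes of the table: Trim63, Trim54 and Trim55, which encode the RING-finger proteins MuRF1, MuRF3 and MuRF2 of the sarcomere, Fbxo32, Fbxo30 and Fbxo40, which encode F-box proteins, and Foxo1, Foxo3 and Foxo4, which encode forkhead transcription factors. RNA was sequenced from the ischemic gastrocnemius of 3 WT mice and 3 Gpr174-/Y mice (labelled GPR174-KO). All 6 were male C57BL/6 mice of 8 to 10 weeks that had undergone hindlimb ischemia (HLI), ligation of the left femoral artery, 7 days earlier. The Gpr174-/Y mice lack the X-linked gene in every cell, so the group does not separate an effect in lymphocytes from one in muscle, and no uninjured muscle was sequenced.

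In skeletal muscle, proteins of the contractile apparatus are marked with ubiquitin by a chain of enzymes that ends in an E3 ligase, and the marked protein is degraded by the proteasome. MuRF1 and the F-box protein Fbxo32 (atrogin-1, MAFbx) are the ligases best known for their induction when muscle wastes, as in fasting, disuse or denervation. FoxO factors enter the nucleus when signalling through insulin, IGF1 and Akt is low and activate both ligase genes along with genes of autophagy, whereas glucocorticoid, myostatin and cytokine signals and the myogenic factor myogenin are further known inputs.

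RefSeq promoters on GRCm38.p6 were at hand for 6 of the 9 genes, with 7 start sites. The 250 bases before the start site are shown for Trim63, Trim54 and Fbxo40, the members with the largest differences between the groups in the results that follow, and capitals mark the motifs searched on both strands: a FoxO site (GTAAACA), an insulin response site (CAAAACA), a steroid receptor half-site (AGAACA) and an E-box of the myogenic factors (CAGCTG). The positions are chr4:134314870-134315119 on the plus strand for Trim63, chr5:31116362-31116611 on the plus strand for Trim54 and chr16:36990468-36990717 on the minus strand for Fbxo40.
Trim63: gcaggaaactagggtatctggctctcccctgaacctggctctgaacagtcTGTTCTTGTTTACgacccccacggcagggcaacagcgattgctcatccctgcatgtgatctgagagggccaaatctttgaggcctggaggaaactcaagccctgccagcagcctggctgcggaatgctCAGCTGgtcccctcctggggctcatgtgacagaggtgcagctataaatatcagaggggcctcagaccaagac
Trim54: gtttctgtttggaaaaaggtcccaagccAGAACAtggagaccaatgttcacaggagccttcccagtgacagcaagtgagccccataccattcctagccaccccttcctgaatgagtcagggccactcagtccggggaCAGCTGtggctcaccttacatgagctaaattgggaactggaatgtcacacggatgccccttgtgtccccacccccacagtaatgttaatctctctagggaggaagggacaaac
Fbxo40: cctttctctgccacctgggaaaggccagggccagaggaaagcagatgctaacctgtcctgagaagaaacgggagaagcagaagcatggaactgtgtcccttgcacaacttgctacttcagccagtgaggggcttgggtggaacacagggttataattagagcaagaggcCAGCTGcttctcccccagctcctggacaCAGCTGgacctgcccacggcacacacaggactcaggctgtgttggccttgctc
Of the 6 genes, Trim63 was the only one with the FoxO letters, read there as TGTTTAC on the minus strand at -194 to -188 from the start site, and they directly followed a half-site TGTTCT at -200 to -195 without overlapping it. The same FoxO letters were in 3.17% of 32851 promoters of this length. The E-box letters were in Trim63 (-72 to -67), Trim54 (-113 to -108) and Fbxo40 (-81 to -76 and -53 to -48, and once before its other start site), and in 13.0% of all promoters. Steroid half-sites were also found in Trim54 and before the other start site of Fbxo40, against 16.1% of all promoters, and the insulin response letters, in 5.56% of all promoters, were in none of the 6 genes. Fbxo30, Foxo1 and Foxo3 held none of the 4 motifs in this window. A match of letters is not evidence of binding, and no binding was measured here.

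Total counts were 18417111 to 18695034 in the WT libraries and 19173066 to 19394504 in the Gpr174-/Y libraries, so that 3 counts, taken as the smallest detectable number, equal 0.155 to 0.163 CPM (counts scaled to a common library size). Gpr174 itself was counted 8, 2 and 5 times in WT but 1, 0 and 0 times in the Gpr174-/Y libraries. Replicate 2 lay between replicates 1 and 3 for 82.9% (WT) and 71.6% (Gpr174-/Y) of 5403 abundant genes, where 33.3% is given by chance, and for 8 and 7 of the 9 members. The sources used here do not say whether the 3 samples of a group were prepared separately, and p-values measure the spread between these samples, which may be technical. With replicate 2 left out in both groups at once, edgeR's quasi-likelihood test called 0 of the genes at an adjusted p of 0.05 (5026 had an unadjusted p under 0.05, and the lowest adjusted p was 0.0542). Left out in WT alone or in Gpr174-/Y alone, 5459 and 5527 genes were called.

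In the main comparison, 5 of the 9 genes were lower in Gpr174-/Y muscle, 0 were higher and 4 did not pass the test (edgeR's quasi-likelihood test, Benjamini-Hochberg adjusted p under 0.05 over 14395 genes). Among all genes tested, 27.6% were called lower and 27.0% higher. Fbxo40 and Trim54 also passed a log2 fold change of 1, as did 4.84% of all genes in the lower direction. The Gpr174-/Y values lay wholly below the WT values for the same 5 genes (Trim63, Trim54, Fbxo40, Foxo1 and Foxo4), against 32.5% of all genes tested. The median log2 fold change of the 9 genes was -0.37, beside 0.0 over all genes. These values are CPM scaled by TMM, a method that sets the bulk of the genes equal between libraries. Scaled to total counts instead, the median of all genes moved to 0.277, 3 of the 9 genes (Trim63, Trim54 and Fbxo40) were lower and 2 (Fbxo30 and Foxo3) were higher, beside 14.0% and 50.7% of all genes.

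**Figure D1:**
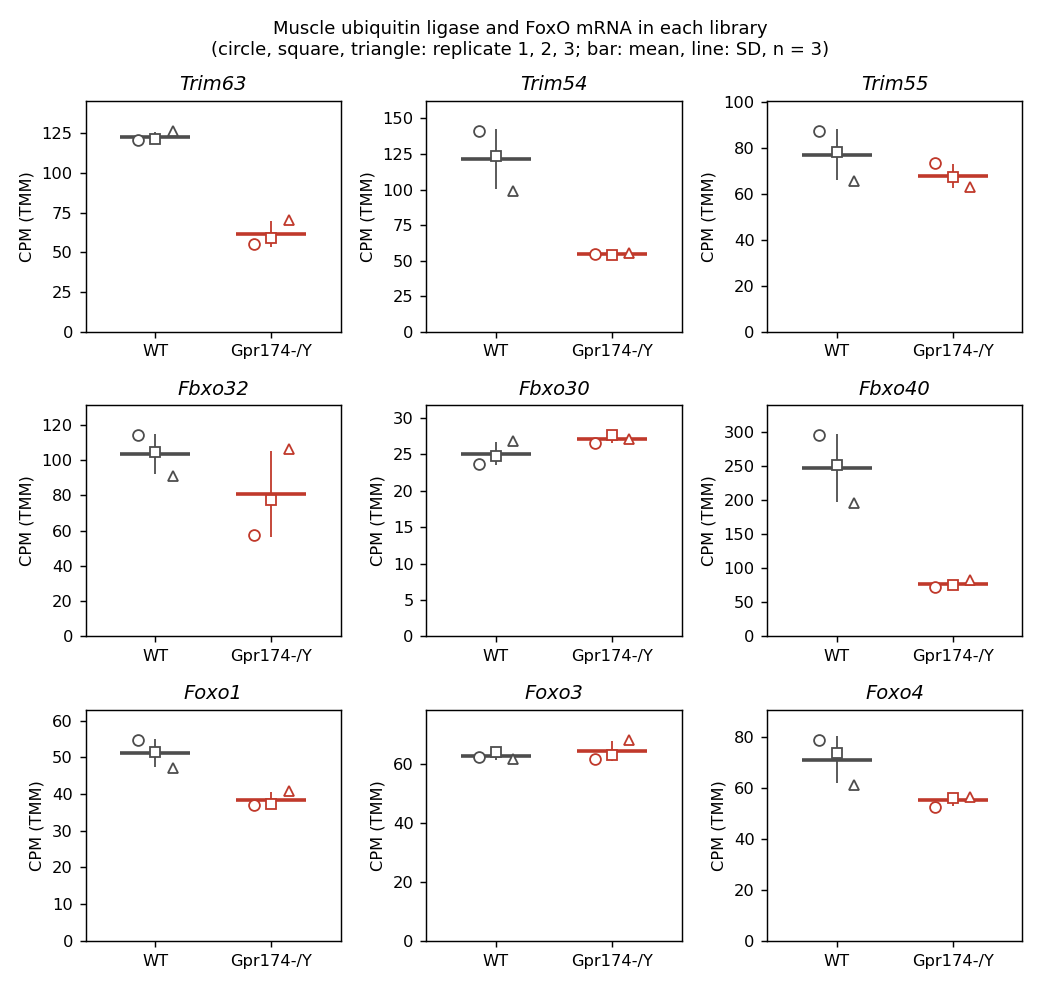
TMM-scaled CPM (y axis, from 0) of the 9 genes in the 3 WT and 3 Gpr174-/Y libraries, with a symbol for each replicate number, a bar at the group mean and a line for the SD. The groups are apart for Trim63, Trim54, Fbxo40, Foxo1 and Foxo4, and the Gpr174-/Y values of Fbxo32 run from 57.7 to 106.3 CPM, the widest relative spread of the 9.

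The MuRF genes differed from one another. Trim63 had 120.3, 121.3 and 126.3 CPM in WT replicates 1, 2 and 3 and 55.0, 59.2 and 70.6 CPM in the Gpr174-/Y replicates. Every Gpr174-/Y library was thus well below the 3 tightly grouped WT libraries. Trim63 fell 1.99-fold, with a log2 fold change of -0.99 (SE 0.09, adjusted p = 0.000813, edgeR), which is just short of the log2 threshold of 1. Trim54, whose product MuRF3 binds microtubules, had 141.2, 123.9 and 98.9 CPM in WT and 55.0, 53.9 and 55.7 CPM in Gpr174-/Y muscle. Here the WT libraries spread and the Gpr174-/Y libraries were nearly equal (log2 fold change -1.14, SE 0.12, adjusted p = 0.00104, edgeR, a 2.21-fold fall). Trim55, encoding MuRF2 of the titin region of the sarcomere, had 87.3, 78.3 and 65.5 CPM in WT and 73.2, 67.3 and 62.8 CPM in Gpr174-/Y muscle. Its groups overlapped, and it did not pass the test (-0.18, SE 0.11, adjusted p = 0.203, edgeR). Leaving out WT replicate 3, the lowest of the WT libraries for Trim55, gave -0.28 and an adjusted p of 0.0118 (edgeR), leaving out WT replicate 1, the highest, gave -0.08 and 0.535, and scaling to total counts turned its sign (0.09, adjusted p = 0.364, edgeR).

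Of the F-box genes, Fbxo40, a muscle-restricted gene whose product targets the insulin receptor substrate IRS1, had the largest difference of the 9. It had 295.6, 251.8 and 196.3 CPM in WT and 72.2, 75.3 and 82.6 CPM in Gpr174-/Y muscle, and its lowest WT library was still far above every Gpr174-/Y library. The fall was 3.23-fold (log2 fold change -1.69, SE 0.15, adjusted p = 0.00073, edgeR), and 1.0% of the genes tested had a lower log2 fold change. Fbxo32 had 113.9, 104.6 and 91.2 CPM in WT and 57.7, 77.5 and 106.3 CPM in Gpr174-/Y muscle. One Gpr174-/Y library, replicate 3, was above the lowest 2 WT libraries, while replicates 1 and 2 were below all 3 of them. The highest Gpr174-/Y value was 1.84 times the lowest, the widest such ratio among the 9 genes, and Fbxo32 did not pass the test (-0.36, SE 0.21, adjusted p = 0.19, edgeR). Without Gpr174-/Y replicate 3 it did (-0.61, adjusted p = 0.0289, edgeR), and without Gpr174-/Y replicate 1, the lowest, the difference shrank to -0.17 (adjusted p = 0.434, edgeR). Under total counts the difference of Fbxo32 was -0.08 (adjusted p = 0.772, edgeR). Fbxo30, also known as MUSA1, encodes a ligase induced by denervation and held in check by BMP signalling. It was the least abundant of the group, with 23.7, 24.8 and 26.8 CPM in WT and 26.6, 27.6 and 27.1 CPM in Gpr174-/Y muscle. The groups overlapped, and the log2 fold change was 0.11 (SE 0.06, adjusted p = 0.165, edgeR). It passed without WT replicate 3, the highest WT library (0.17, adjusted p = 0.0341, edgeR), and under total counts (0.38, adjusted p = 0.00719, edgeR).

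The FoxO genes showed smaller differences. Foxo1 had 54.7, 51.5 and 47.1 CPM in WT and 36.9, 37.3 and 40.9 CPM in Gpr174-/Y muscle, and no Gpr174-/Y library reached the WT range. It fell by 0.41 on the log2 scale (SE 0.07, adjusted p = 0.00394, edgeR), a call that was lost under total counts (-0.14, adjusted p = 0.119, edgeR). Foxo4 had 79.0, 73.7 and 61.3 CPM in WT and 52.8, 56.2 and 56.7 CPM in Gpr174-/Y muscle. The groups were apart by a small gap between WT replicate 3 and Gpr174-/Y replicate 3 (-0.37, SE 0.10, adjusted p = 0.016, edgeR). That call was lost under total counts (-0.09, adjusted p = 0.349, edgeR), without WT replicate 2 (adjusted p = 0.068, edgeR) and without Gpr174-/Y replicate 1 (0.0603) or 2 (0.0505). Foxo3, the FoxO factor most studied for control of autophagy in muscle, had 62.2, 63.9 and 61.6 CPM in WT and 61.6, 63.1 and 68.1 CPM in Gpr174-/Y muscle, with overlapping groups (0.04, SE 0.05, adjusted p = 0.564, edgeR). Under total counts it was called higher (0.31, adjusted p = 0.00652, edgeR). Activity of these factors is set largely by phosphorylation and nuclear transport, which mRNA levels do not show.

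Count ratios within a library do not depend on how libraries are scaled. The ratio of Trim63 to Fbxo32 counts was 1.056, 1.159 and 1.384 in WT and 0.954, 0.765 and 0.664 in Gpr174-/Y replicates 1, 2 and 3. Every WT library had more Trim63 than Fbxo32 counts and every Gpr174-/Y library had fewer (difference of the log2 ratio -0.60, 2-sided exact permutation test, p = 0.1). Foxo1 to Foxo3 was 0.879, 0.807 and 0.765 in WT and 0.598, 0.592 and 0.601 in Gpr174-/Y muscle, again without overlap (-0.45, exact permutation p = 0.1). Fbxo30 to Fbxo32 was 0.208, 0.237 and 0.294 in WT and 0.461, 0.356 and 0.255 in Gpr174-/Y muscle. Here one Gpr174-/Y library, replicate 3, fell inside the WT range (0.51, exact permutation p = 0.2), and the difference was 0.31 without Gpr174-/Y replicate 1 and 0.73 without replicate 3. With 3 samples against 3, 0.1 is the smallest p this test allows, so none of the 3 ratios could pass 0.05, before any adjustment over them.

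**Figure D2:**
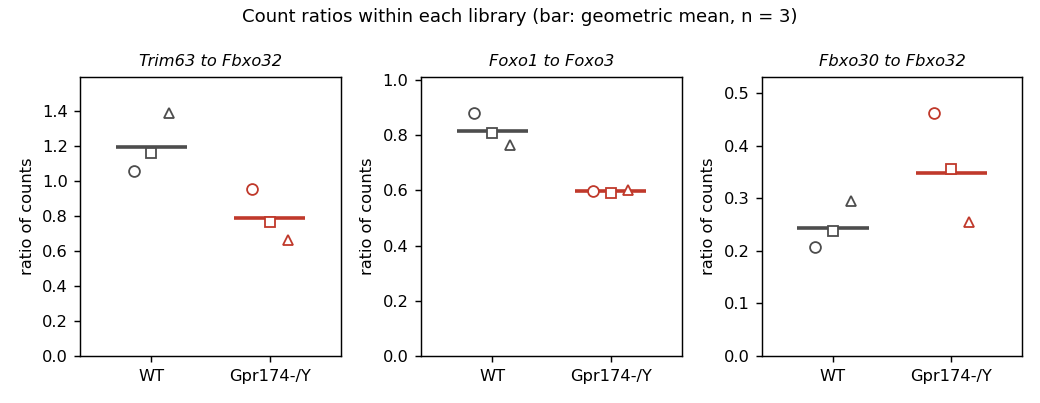
Ratio of the estimated counts of 2 genes (y axis, from 0) in each WT and Gpr174-/Y library for Trim63 to Fbxo32, Foxo1 to Foxo3 and Fbxo30 to Fbxo32, with a bar at the geometric mean of the 3 libraries. The first 2 ratios are lower in every Gpr174-/Y library than in any WT library, and the third overlaps at Gpr174-/Y replicate 3 (0.255).

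Levels can be compared between genes in TPM, the deposited values scaled by transcript length and to a fixed total per library. In WT muscle Trim54 (139 ± 17.7 TPM, mean ± SD, n = 3) and Trim63 (119 ± 8.68) were highest and overlapped each other. Fbxo40 (85.3 ± 13.0), Trim55 (49.9 ± 4.14), Foxo4 (39.3 ± 3.15) and Fbxo32 (25.5 ± 1.57) followed without overlap between neighbours. Foxo1 (15.8 ± 0.403) and Foxo3 (15.5 ± 0.710) overlapped, and Fbxo30 was lowest (7.73 ± 0.773). In Gpr174-/Y muscle Trim54 (82.9 ± 3.72) and Trim63 (79.1 ± 14.3) were still highest and overlapped. Fbxo40, at 35.0 ± 3.50 TPM, came below Trim55 (59.5 ± 2.65) and overlapped Foxo4 (40.1 ± 2.83). Fbxo32 (26.4 ± 8.90) overlapped both Fbxo40 and Foxo3 (20.9 ± 1.81), while Foxo3 was above Foxo1 (15.6 ± 1.41) without overlap. Fbxo30 stayed lowest (10.8 ± 0.214).

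The deposited table splits each gene's counts among RefSeq transcripts, and reads shared by transcripts were divided by estimation. Trim54, Fbxo32, Foxo1 and Foxo3 had 1 transcript each. The main Trim55 transcript, NM_001081281.2, held 90.2%, 86.1% and 80.4% of the gene's counts in WT and 70.3%, 71.3% and 71.5% in Gpr174-/Y muscle. The predicted transcript XM_006535490.3 made up 8.7%, 12.8% and 18.1% in WT and 28.2%, 28.0% and 27.1% in Gpr174-/Y muscle. A larger part of Trim55 counts thus went to the predicted transcript in every Gpr174-/Y library. The Fbxo40 transcript NM_001358217.1 held 42.5%, 41.2% and 37.0% in WT and 16.8%, 26.1% and 40.4% in Gpr174-/Y muscle, which overlap. The predicted Fbxo40 transcript XM_006521883.4 held 6.2%, 6.7% and 6.7% in WT and 19.6%, 9.7% and 7.3% in Gpr174-/Y muscle, higher in each Gpr174-/Y library but close to WT in replicate 3. In all, 3 of 10 member transcripts with a mean share of 5% to 95% did not overlap between the groups, close to the 26.8% of 13933 such transcripts over the whole table, so this count is not particular to the group. A split among transcripts carries an estimation error that the counts do not show.

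**Figure D3:**
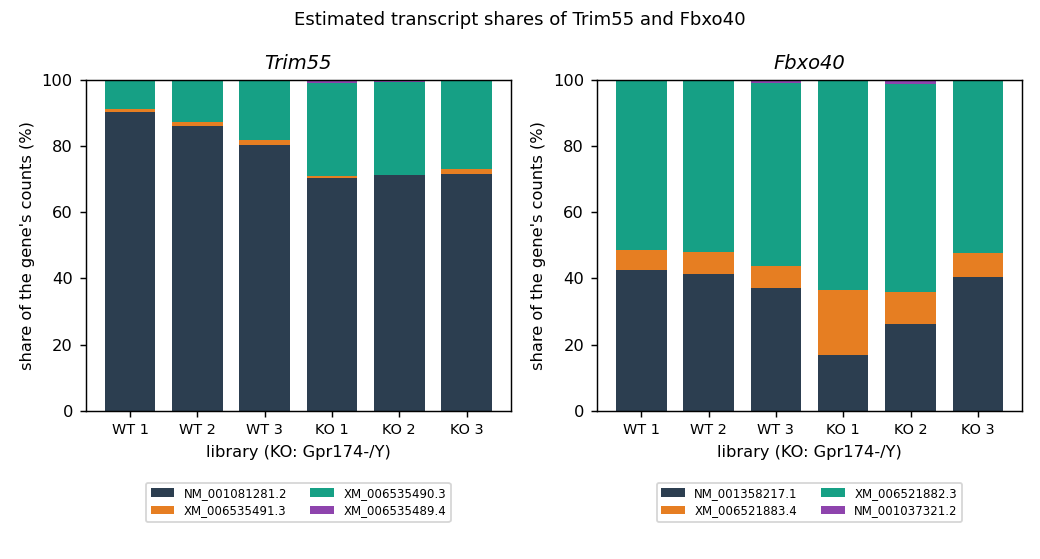
Share of the estimated counts of Trim55 and Fbxo40 (y axis, percent) given to each RefSeq transcript in every library, stacked to 100. The predicted Trim55 transcript is at 8.7% to 18.1% in WT and at 27.1% to 28.2% in Gpr174-/Y muscle, and the Fbxo40 shares vary more among the Gpr174-/Y libraries than among the WT libraries.

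Which cells of the muscle expressed the ligase and FoxO genes was not measured. Fibre mRNA took a different share of the libraries in WT and Gpr174-/Y muscle. The 14 fast fibre markers (fast myosin, troponin and calcium-handling genes, led by Myh4, Myh1 and Mylpf) made up 15.4%, 13.6% and 10.7% of all counts in WT and 5.99%, 5.85% and 5.64% in Gpr174-/Y replicates 1, 2 and 3. All 14 were called lower, with a median log2 fold change of -1.45. Of all genes tested, 27.6% were called lower and 27.0% higher. In bulk muscle, fewer fibres and less RNA per fibre cannot be told apart. Of 10 markers of regenerating fibres, 8 were called higher and 0 lower (median 0.93), and their summed share was 0.249% to 0.53% in WT and 0.633% to 0.719% in Gpr174-/Y muscle. Within that list the embryonic light chain gene Myl4 rose (log2 fold change 0.75, adjusted p = 0.00952, edgeR), whereas the embryonic myosin Myh3 (0.85, adjusted p = 0.124) and the perinatal myosin Myh8 (0.20, adjusted p = 0.412) did not pass. The part of fast or regenerating fibres in the values of the ligase genes was not tested. The scaling that follows uses the 14 fast fibre genes only and shifts all genes, so it is not such a test.

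Set against the summed counts of the 14 fast fibre genes, Trim63, Trim54 and Fbxo40 no longer passed the test. Per 10000 fast fibre counts, Trim63 had 6.81, 8.08 and 11.2 in WT and 9.91, 11.1 and 14.0 in Gpr174-/Y muscle, with overlap (log2 fold change 0.43, adjusted p = 0.0794, edgeR). Trim54 had 8.0, 8.25 and 8.77 in WT and 9.91, 10.1 and 11.1 in Gpr174-/Y muscle, here with each Gpr174-/Y library above the WT libraries (0.31, adjusted p = 0.102, edgeR). Fbxo40 had 16.7, 16.8 and 17.4 in WT and 13.0, 14.1 and 16.4 in Gpr174-/Y muscle, still below WT in each library (-0.23, adjusted p = 0.238, edgeR). The other 6 were called higher, with log2 fold changes from 1.03 (Foxo1) to 1.52 (Fbxo30), but so were 93.7% of all genes, whose median was 1.425, and each of the 9 but Fbxo30 and Foxo3 was below that median.

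**Figure D4:**
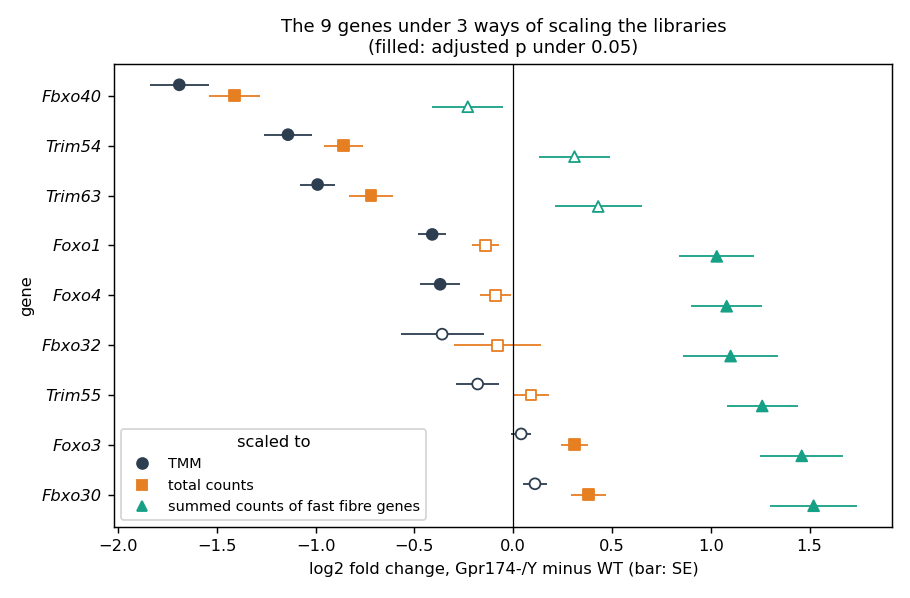
Log2 fold change (x axis, Gpr174-/Y minus WT, bar for the SE) of the 9 genes (y axis) with libraries scaled by TMM, to total counts or to the summed counts of 14 fast fibre genes, filled where the adjusted p was under 0.05. Fbxo40, Trim54 and Trim63 are lowest on all 3 scales, and only on the fast fibre scale are they not called.

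Markers of other cell types also moved between the groups, where 27.6% of all genes tested were called lower and 27.0% higher. Of 9 macrophage markers, led by Adgre1, Cd68 and Csf1r, 8 were called higher and 0 lower, and their summed share was 0.125% to 0.211% in WT and 0.361% to 0.382% in Gpr174-/Y muscle. Of 10 endothelial markers (Pecam1, Cdh5, Kdr and others), 9 were called lower and 1 higher, with shares of 0.106% to 0.114% and 0.0783% to 0.0858%. The slow fibre list (Myh7, Myl2, Myl3 and others) had 4 of 10 genes lower and 2 higher (shares of 0.147% to 0.218% in WT and 0.218% to 0.23% in Gpr174-/Y muscle). Myh7, Myl2 and Myl3 were among the 4 lower genes (log2 fold changes -1.43, -4.29 and -4.11), so the summed share does not follow them. Of 5 satellite cell markers (Pax7, Myf5, Calcr and others), 1 was lower and 2 were higher, with shares of 0.00782% to 0.0109% and 0.014% to 0.016%. The fibroblast list (Pdgfra, Col1a1, Col3a1 and others) had 3 of 6 lower and 2 higher, and took 1.04% to 1.6% and 2.32% to 2.56% of counts. Most of that share was Col1a1 and Col3a1, the 2 genes called higher (log2 fold changes 0.87 and 0.56). The lower genes were Pdgfra (-0.21) and, named after their values were seen, Dcn (-0.57) and Lum (-0.81). The summed share is thus mainly that of 2 collagen genes. Adipocyte markers (Adipoq, Plin1, Cidec and others) had 0 of 6 lower and 2 higher, with overlapping shares of 0.0109% to 0.0176% and 0.0175% to 0.0239%. T cell markers (Cd3e, Cd3d, Cd4 and others) had 0 of 4 tested called (edgeR, 1 with an unadjusted p under 0.05), though their summed share was 0.00109% to 0.00213% in WT and 0.00238% to 0.00262% in Gpr174-/Y muscle, without overlap. Most of that sum was Cd4, with 10.1 to 19.2 CPM in WT and 19.0 to 19.8 CPM in Gpr174-/Y muscle. Under total counts Cd4 was called higher (0.69, adjusted p = 0.034, edgeR), as was Cd8a, named after its values were seen (0.91, adjusted p = 0.0264). On that scale Cd3e (0.08, adjusted p = 0.847, edgeR) and Cd3d (0.50, adjusted p = 0.25) did not pass, and 50.7% of all genes were called higher. Of 6 neutrophil markers 2 were tested, with 1 lower and 1 higher, their summed share was 0.00194% to 0.00275% in WT and 0.00349% to 0.00396% in Gpr174-/Y muscle, and Ly6g had at most 3 counts in each library. The part of these cells in the ligase and FoxO values was not tested.

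The genes that act with the ligases were followed as lists, with adjusted p from the same edgeR fit. In that fit 27.6% of all genes tested were lower and 27.0% higher, shares to be read beside the count of each list. Of 16 other ligases of muscle, 6 were lower and 2 higher, and the median log2 fold change of -0.14 turned to 0.13 under total counts. Traf6, an adaptor ligase of cytokine signalling (-0.23, adjusted p = 0.0295), and Stub1, the chaperone-linked ligase CHIP (-0.21, adjusted p = 0.0249), fell with TMM but not with total counts (0.04 and 0.06). Trim32 (0.09, adjusted p = 0.261) and Trim72, which acts in membrane repair (-0.16, adjusted p = 0.0563), did not pass, though Trim32 was called higher under total counts (0.36, adjusted p = 0.00352). Of 18 genes of the SCF core, E2 enzymes and ubiquitin itself, 11 were lower and 2 higher (median -0.21, or 0.06 under total counts). The SCF adaptor Skp1, through which F-box proteins join the complex, fell (-0.35, adjusted p = 0.00292), as did the RING subunit Rbx1 (-0.37, adjusted p = 0.00226), though neither passed under total counts. The scaffold Cul1 did not pass (-0.10, adjusted p = 0.126) and was higher under total counts (0.17, adjusted p = 0.0244), and Cand1, which exchanges F-box subunits, rose with both scalings (0.50, adjusted p = 0.00206).

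Genes known as FoxO targets were mostly lower with TMM, where 27.6% of all genes tested were called lower and 27.0% higher. Of 15 autophagy targets, 10 were lower and 1 higher (median -0.31, or -0.04 under total counts). Map1lc3a, encoding an LC3 protein of the autophagosome, had 356, 357 and 355 CPM in WT and 203, 183 and 151 CPM in Gpr174-/Y muscle (log2 fold change -0.99, adjusted p = 0.00104, edgeR), and the mitophagy receptor gene Bnip3 fell by 0.72 (adjusted p = 0.00197, edgeR). Both also passed under total counts. Map1lc3b (-0.31, adjusted p = 0.0106) and Gabarapl1 (-0.17, adjusted p = 0.0404) passed with TMM but not with total counts. Of 14 other targets, 8 were lower and 1 higher (median -0.23, or 0.04 under total counts). Pdk4, which restrains glucose oxidation in mitochondria, had 356, 357 and 351 CPM in WT and 118, 133 and 160 CPM in Gpr174-/Y muscle. It fell by 1.37 (adjusted p = 0.00062, edgeR), with no overlap between the groups. Eif4ebp1, a brake on translation initiation, rose (0.40, adjusted p = 0.00227), Irs2 fell with TMM only (-0.24, adjusted p = 0.0435) and Sesn1 did not pass (0.14, adjusted p = 0.152) but did under total counts (0.41, adjusted p = 0.0112).

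The signals upstream of the ligases did not move in 1 direction. Over all genes tested, 27.6% were lower and 27.0% higher, with a median of 0.0. Of 17 genes of IGF1, Akt and linked kinases, 4 were lower and 6 higher, with a median of -0.03 (0.24 under total counts). Igf1 (0.27, adjusted p = 0.00593) and its receptor gene Igf1r (0.28, adjusted p = 0.00511) rose. Irs1, whose product Fbxo40 targets, had 107, 106 and 104 CPM in WT and 72.2, 66.3 and 59.0 CPM in Gpr174-/Y muscle and fell by 0.68 (adjusted p = 0.00113, edgeR). The insulin receptor gene Insr fell with TMM (-0.28, adjusted p = 0.00261) but not with total counts (-0.01). Of 21 catabolic inputs, 19 were tested, and 5 were lower and 11 higher (median 0.29, or 0.56 under total counts). The glucocorticoid receptor gene Nr3c1 fell with TMM (-0.33, adjusted p = 0.0064) but not with total counts (-0.05), and its target Fkbp5 did not pass (0.07, adjusted p = 0.331, or 0.35 and 0.0101 under total counts). Mstn, encoding myostatin, had 32.7, 23.5 and 9.61 CPM in WT and 8.17, 8.24 and 8.84 CPM in Gpr174-/Y muscle. The WT libraries were widely spread, with the lowest close to the Gpr174-/Y values (-1.38, adjusted p = 0.0246, edgeR), and the gene for the myostatin receptor Acvr2b did not pass (-0.72, adjusted p = 0.0571). Myog of this list, known to bind E-boxes of the Trim63 and Fbxo32 promoters and named here after its values were seen, had 71.1, 96.2 and 130 CPM in WT and 285, 266 and 247 CPM in Gpr174-/Y muscle, opposite in direction to Trim63.

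The mRNAs of known substrates of these ligases had the lowest median of the 7 pathway lists. Of 16 genes, 14 were lower and 1 higher, with a median log2 fold change of -1.36 (-1.07 under total counts). Several of them are also fast fibre markers (Myh4, Myh1 and Mylpf among them), so this count and that of the fibre list are not separate observations. Myh2, the fast oxidative myosin, had 1590, 1840 and 2230 CPM in WT and 336, 280 and 200 CPM in Gpr174-/Y muscle (-2.80, adjusted p = 0.00062, edgeR), lower than Myh1 (-1.76, adjusted p = 0.0015), Myh4 (-1.49, adjusted p = 0.0149) and the slow myosin Myh7 (-1.43, adjusted p = 0.0305) in log2 fold change. Under total counts Myh7 no longer passed (-1.14, adjusted p = 0.0503). Whether the proteins were degraded is not measured by mRNA. Myod1 and Eif3f, substrates of Fbxo32 that are not sarcomere proteins and were named after their values were seen, had log2 fold changes of 0.54 (adjusted p = 0.00139, edgeR) and -0.03 (adjusted p = 0.696, edgeR).

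**Figure D5:**
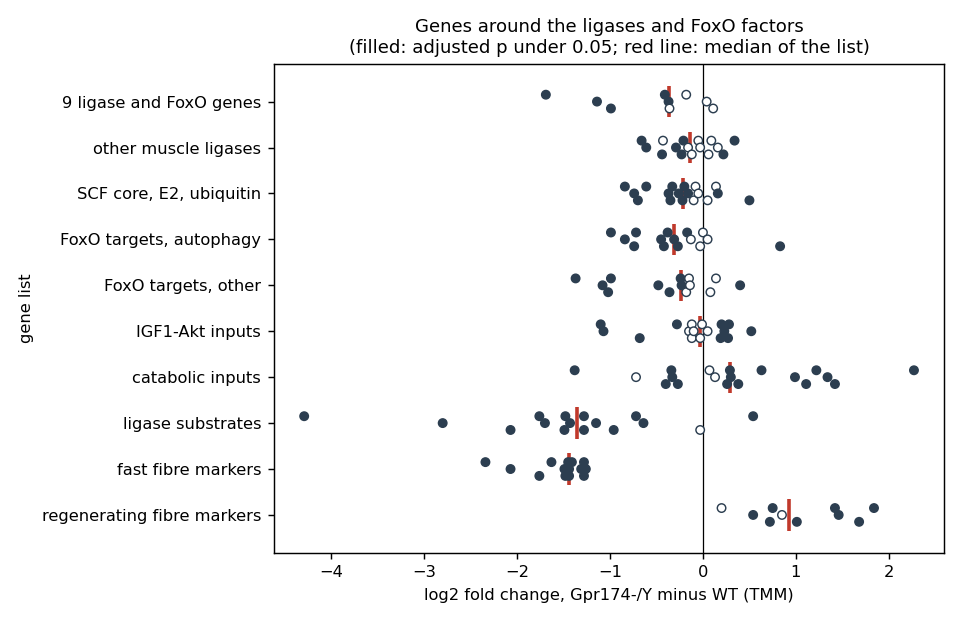
Log2 fold change (x axis, Gpr174-/Y minus WT, TMM) of each tested gene in the 9 members and in 9 lists around them (y axis), filled where the adjusted p was under 0.05, with a red line at the median. The medians run from -1.45 (fast fibre markers) to 0.93 (regenerating fibre markers), with the 9 members at -0.37.

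Among 9972 genes with a mean of at least 10 CPM, those closest to Trim63 over the 6 libraries were Gimap4, Fam214a and Gm52435, whose centred log2 CPM differed from that of Trim63 by a root mean square of 0.05, 0.052 and 0.076. Gimap4 had 33.6, 33.5 and 34.1 CPM in WT and 15.1, 16.9 and 18.0 CPM in Gpr174-/Y muscle, the same step between the groups at a lower level. For Foxo1 the closest were Pcmtd2 (0.014), Pcgf5 (0.017) and Cisd2 (0.02). For Fbxo32 even the closest genes, Prxl2a (0.099), Slc28a2 (0.11) and Pcx (0.121), were farther away. Prxl2a had 12.6, 12.5 and 10.4 CPM in WT and 7.41, 8.38 and 11.1 CPM in Gpr174-/Y muscle, and like Fbxo32 it was highest among the Gpr174-/Y libraries in replicate 3. The 6 points of each comparison share the libraries and the difference between groups, so these are descriptions of likeness only.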

How the data were processed

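RNA from the ischemic gastrocnemius of 3 WT and 3 Gpr174-/Y mice, 7 days after HLI, was sequenced on a BGISEQ-500 instrument according to the study's methods, whereas the labels name an Illumina TruSeq kit. The submitters' processing notes name HISAT2 2.0.4, Bowtie2 2.2.5, RSEM 1.2.12 and the build GRCm39, and the strand setting of the counting was not given in the sources used here. The authors deposited expected counts (RSEM estimates of the reads from each of 58843 RefSeq transcripts, often fractional and not normalized), together with FPKM values scaled by the authors for length and library size and TPM values that the authors deposited for the same libraries. The 6 columns of group means were not used.

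The sum of expected counts over a gene's transcripts was rounded for each of 18089 genes, and 99.7% of these could be matched to a symbol. edgeR 4.0.16 (R 4.3.3) was run with TMM scaling, its filter on low counts and the robust quasi-likelihood test, with Benjamini-Hochberg adjustment over 14395 genes, an adjusted p of 0.05 and, where stated, an absolute log2 fold change of 1. The SE is the log2 fold change divided by the root of the F statistic. Alternatives were DESeq2 1.42.0 size factors and Wald test, total counts, omission of the filter, a minimum of 10 counts per library, limma 3.58.1 on log2(FPKM + 1) and log2(FPKM + 0.1), a replicate block, the fast fibre total as library size, leaving out each library, and replicates 1 and 3 only. The tests were run on simulated counts with as many genes raised as lowered, which does not show how the scalings behave on libraries that differ in composition.

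The members, lists and alternatives were chosen with earlier results of these data known. Named are the 9 members, Gpr174, the first 4 genes of each pathway list, the first 3 of each marker list, and the 3 genes closest to Trim63, Fbxo32 and Foxo1. Other genes named are said to have been chosen after their values were seen. Promoter sequences and coordinates are those of RefSeq on GRCm38.p6, and the deposited table gives no coordinates. The limit of 3 counts taken as detectable covers counting error only. Figures were drawn with Python 3.11.15 and matplotlib 3.10.9.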

Additional observations from a re-analysis of the deposited data

How the results depend on the processing

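Same-numbered mice did not deviate together over all tested genes (correlations of 0.016, -0.029 and -0.008). A correlation over all genes cannot show whether same-numbered samples were handled together. With a replicate block 6809 genes were called in place of 7863, 5 members were lower and 0 higher, and no member's call changed. Trim63, Trim54 and Fbxo40 were called under every alternative but the fast fibre total and replicates 1 and 3 only. With replicates 1 and 3 only, 0 genes were called, 0 were past both thresholds, and 0 members and 0 genes of each of the 7 pathway lists were called. With log2(FPKM + 1), 645 genes were past both thresholds in place of 1193. Under total counts, log2(FPKM + 1) and log2(FPKM + 0.1) alike, 3 members were lower and 2 higher, 5 other FoxO targets were called in place of 9, and medians turned to 0.13 (other ligases), 0.06 (SCF, E2 and ubiquitin), 0.04 (other FoxO targets) and 0.24, 0.23 and 0.24 (IGF1 and Akt), while Trim55 turned to 0.09, 0.13 and 0.14. With the fast fibre total 0 members were lower and 6 higher, and Trim63 (0.43), Trim54 (0.31), Trim55 (1.26), Fbxo32 (1.10), Foxo1 (1.03) and Foxo4 (1.08) turned. The cause of these turns was not tested beyond the shift of all genes that each scaling makes. Leaving out each library in turn gave 924 to 1828 genes past both thresholds (the highest without WT replicate 3), 0 to 1 members higher (Fbxo30, without WT replicate 3), 5 to 9 other ligases, 5 to 10 other FoxO targets and a log2 fold change of -0.003 to 0.07 for Foxo3, below 0 without Gpr174-/Y replicate 3. At these depths the 9 members had 381 (Fbxo30) to 4751 (Fbxo40) counts in each library, far above the 3 counts taken as detectable.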

Other observations

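Genes named in this paragraph were chosen after their values were seen. As with Fbxo32, Klf15, a glucocorticoid-induced factor of muscle and fat metabolism, was lowest in Gpr174-/Y replicate 1 and highest in replicate 3, with 9.7, 12.3 and 17.7 CPM in replicates 1, 2 and 3, below 30.6, 27.1 and 23.1 CPM in WT (log2 fold change -1.02, adjusted p = 0.0075, edgeR). Gadd45a, induced in denervated and fasted muscle, had 35.0, 42.4 and 51.3 CPM in the Gpr174-/Y replicates and 41.6, 38.9 and 41.2 CPM in WT, and did not pass (0.08, adjusted p = 0.625, edgeR). The adipocyte gene Adipoq had 30.2, 36.6 and 47.8 CPM in Gpr174-/Y replicates 1, 2 and 3 and 17.1, 19.6 and 24.5 CPM in WT (0.90, adjusted p = 0.00817, edgeR). Of the 9 members, Trim63, Trim54, Fbxo32, Fbxo40, Foxo1, Foxo3 and Foxo4 had their highest Gpr174-/Y value in replicate 3. Replicates 1 and 3 were the extremes of the Gpr174-/Y group for 71.6% of the 5403 abundant genes. How many of all genes were highest in replicate 3 was not counted, so this order is not shown to be particular to the members. Sgk1, a kinase known to phosphorylate FoxO factors, had 229, 210 and 176 CPM in WT and 88.7, 92.8 and 105 CPM in Gpr174-/Y muscle (-1.10, adjusted p = 0.000946, edgeR, and -0.82 under total counts), and Akt1 had 197, 210 and 232 CPM in WT and 310, 307 and 298 CPM in Gpr174-/Y muscle (0.52, adjusted p = 0.00195, edgeR). What links these values was not tested.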
